A study of Mus musculus with 36 samples.

Results

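The 9 genes described here encode 7 potassium channel pore subunits of the heart (Kcna5, Kcnh2, Kcnq1, Kcnd2, Kcnj2, Kcnj3 and Kcnj12), the potassium channel accessory subunit Kcnip2, and connexin 43 (Gja1). They were chosen by symbol, with earlier results of these data known. All 9 were measured, by 17 of the 22690 probe sets, and they are 9 of the 12393 genes tested. Left ventricles of 36 mice were each profiled on 1 single-channel Affymetrix array, 8 weeks after surgery. The surgery was either transverse aortic constriction (TAC), a narrowing of the aorta that makes the heart pump against a higher pressure, or SHAM. Mice were killed at 6 times, from ZT03 to ZT23 in steps of 4 h, and 3 mice per time and surgery made 12 groups and 18 arrays per surgery. Strain, sex, age and light schedule are not given in the labels used here.

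Ventricular muscle fires an action potential whose end depends on potassium leaving the cell. In mouse ventricle the early repolarisation is carried by transient outward channels (Kv4.2, encoded by Kcnd2, and its relative Kv4.3, held at the membrane by KChIP2, the product of Kcnip2) and by delayed rectifiers such as Kv1.5 (Kcna5). Kir2.1 and Kir2.2 (Kcnj2 and Kcnj12) hold the resting potential, GIRK1 (Kcnj3) forms the acetylcholine-gated channel that is prominent in the atria, and connexin 43 passes the impulse from cell to cell through gap junctions.

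The deposited values were relative. They had been centred so that each probe set's median was 0, to within 1e-06, in SHAM and again in TAC. Whether a gene was higher or lower after TAC, or than another gene, could therefore not be measured, and the presence of ventricular muscle could not be checked from marker levels. The log base is unstated, and log2 was assumed. A 24-h cosine curve was fitted to each gene, and its amplitude is the height of its crest above its midline on this scale. The SE of an amplitude or peak time uses 1 spread per gene, estimated over the SHAM and TAC arrays together. The n printed beside it counts the arrays of that surgery only. Where mice differed more in TAC, the TAC SE can be too small and the SHAM SE too large. The 10 ventricular cardiomyocyte markers (such as Myh6 and Tnnt2) had a mean between -0.09 and 0.07 on the SHAM arrays and between -0.17 and 0.10 on the TAC arrays. On SHAM ZT11 replicate 3 the mean of 7 thymocyte markers was 2.43, and on TAC ZT23 replicate 1 the mean of 6 airway markers was 1.21. Calls that change without these 2 arrays are given with both values. Airway means were also raised on TAC ZT03 replicate 3 (0.91) and SHAM ZT23 replicate 3 (0.80), below the limit of 1 that set those 2 apart. That limit was not applied to the 3 white adipocyte markers. Their mean ranged from -0.65 to 1.07 over the SHAM arrays and from -0.62 to 1.36 over the TAC arrays. In whole tissue, fewer cells of a type and less RNA per cell cannot be told apart.

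In SHAM hearts 5 of the 9 genes followed a 24-h rhythm. These were Gja1, Kcna5, Kcnh2, Kcnj3 and Kcnj12, at an adjusted p under 0.05 in a limma fit across all genes, where 5.58% of all genes passed. Gja1 peaked near ZT24, Kcna5 and Kcnh2 near ZT12, Kcnj12 at ZT16.5 and Kcnj3 at ZT18.7. In TAC hearts 1 of the 9, Kcnh2, passed, against 4.35% of all genes, and 3 had an unadjusted p under 0.05, against 19.8%. In SHAM 7 had an unadjusted p under 0.05, against 18.8%. The median amplitude of the 9 genes was 0.11 in SHAM and 0.07 in TAC, beside 0.05 in each surgery over all genes. Because the 9 genes were chosen with earlier results of these data known, the shares of all genes describe the set and do not test it. The difference between the rhythms of the surgeries passed for 0 of the 9 genes in limma (0.0484% of all genes), and at an unadjusted p under 0.05 for 2, Kcna5 and Kcnj3, against 6.27% of all genes. A rhythm called in SHAM and not in TAC is therefore not shown to differ between them. In a test added after seeing the data, of the mean of the SHAM and TAC curves, 6 of the 9 genes passed (Gja1, Kcnh2, Kcnj3, Kcnj12, Kcnd2 and Kcna5), against 14% of all genes. The SHAM count rested on all 3 replicate numbers together. It was 3 without all arrays of replicate number 1, 0 without those of number 2 and 2 without those of number 3. Calls over all 12393 genes fell as well, from 692 to 421, 119 and 324 in the same order.

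**Figure D1:**
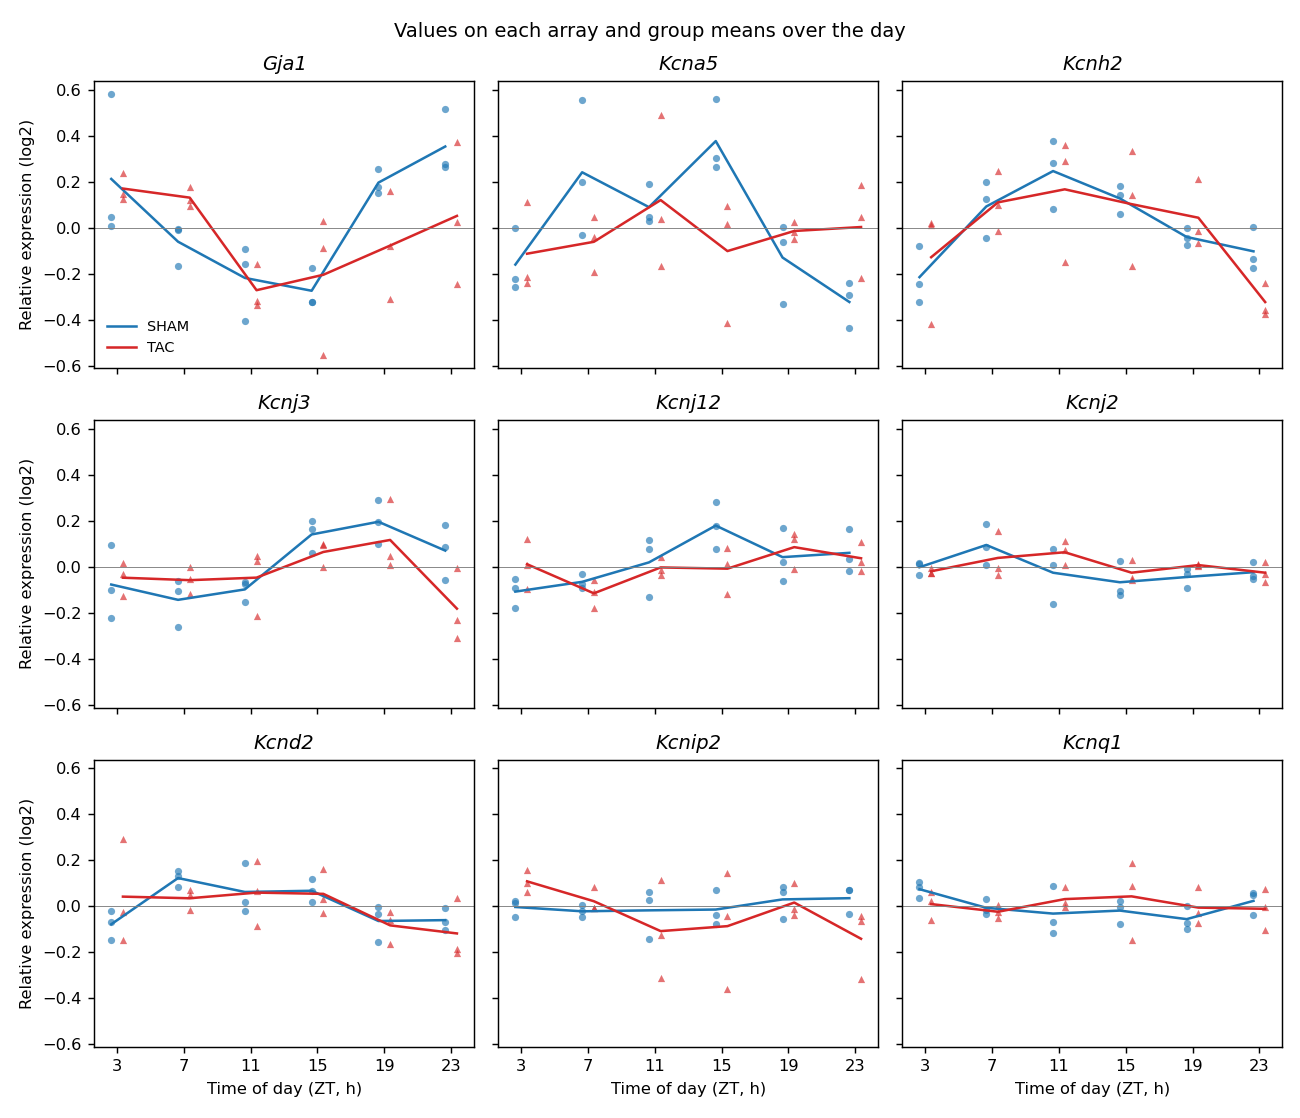
Relative expression (log2) of each of the 9 genes against time of day (ZT, in h), with a circle for each SHAM array, a triangle for each TAC array and lines through the group means of 3 arrays. Gja1 ran from a SHAM mean of -0.27 at ZT15 to 0.35 at ZT23, Kcna5 ran the other way between the same times (0.38 to -0.32), and the SHAM group means of Kcnip2 all lay between -0.02 and 0.03.

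Gja1, on chromosome 10 (56377300 to 56390419, GRCm38.p6), had the largest amplitude of the 9 in SHAM. Its 3 SHAM arrays read -0.17, -0.33 and -0.32 at ZT15 and -0.09, -0.16 and -0.40 at ZT11. They read 0.15, 0.26 and 0.18 at ZT19, 0.52, 0.28 and 0.26 at ZT23, and 0.58, 0.01 and 0.05 at ZT03. At ZT07 they were -0.17, -0.01 and -0.01. All 6 SHAM arrays of ZT19 and ZT23 lay above all 9 arrays of ZT07, ZT11 and ZT15. The fitted amplitude was 0.32 ± 0.06 (SE, n = 18) with a peak at ZT23.8 ± 0.68 h, a peak-to-trough fold of 1.56, and an adjusted p of 0.0011 in limma. This call held without any single array (adjusted p up to 0.00547).

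In TAC the Gja1 arrays were at 0.15, 0.12 and 0.24 at ZT03 and 0.12, 0.10 and 0.17 at ZT07, and at -0.16, -0.34 and -0.32 at ZT11. At ZT15 they spread from -0.55 to 0.03, at ZT19 from -0.31 to 0.16, and at ZT23 from -0.24 to 0.37. The TAC mice of 1 time thus agreed closely at ZT03 and ZT07 and differed widely from ZT15 to ZT23. The TAC amplitude was 0.22 ± 0.06 with a peak at ZT2.41 ± 1.01 h (SE, n = 18), and the adjusted p was 0.0538. It was below 0.05 without SHAM ZT03 replicate 1 (0.04) or 3 (0.0482), or without TAC ZT15 replicate 2 (0.0478) or 3 (0.0267). It was also below 0.05 without TAC ZT19 replicate 3 (0.0311) or TAC ZT23 replicate 1, the array with the highest airway mean (0.0159). It was 0.174 in a fit of the TAC arrays alone. The fitted peak of Gja1 was 2.62 ± 1.22 h (SE) later in TAC than in SHAM, and the test of the difference of rhythm gave an unadjusted p of 0.0511 and an adjusted p of 0.789.

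Connexin 43 was read by 6 probe sets, whose values correlated pairwise between 0.54 and 0.89 over the 36 arrays. Each was highest around the same time in SHAM, with peaks between ZT22.7 and ZT0.23, and 5 of the 6 passed by themselves. The exception had an amplitude of 0.27 ± 0.09 (SE, adjusted p = 0.154 in limma over all probe sets), and the largest amplitude of the 6 was 0.43 ± 0.07. Of 6 endothelial markers, 3 also had a rhythm in SHAM, among them Kdr, a receptor for vascular growth factor, with a peak at ZT0.08, Tek, the angiopoietin receptor, at ZT22.6, and Emcn, endomucin, at ZT21.2. The mean of the endothelial markers ranged from -0.34 to 0.16 over the SHAM arrays and from -0.27 to 0.19 over the TAC arrays. Its part in the Gja1 result was not tested.

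**Figure D2:**
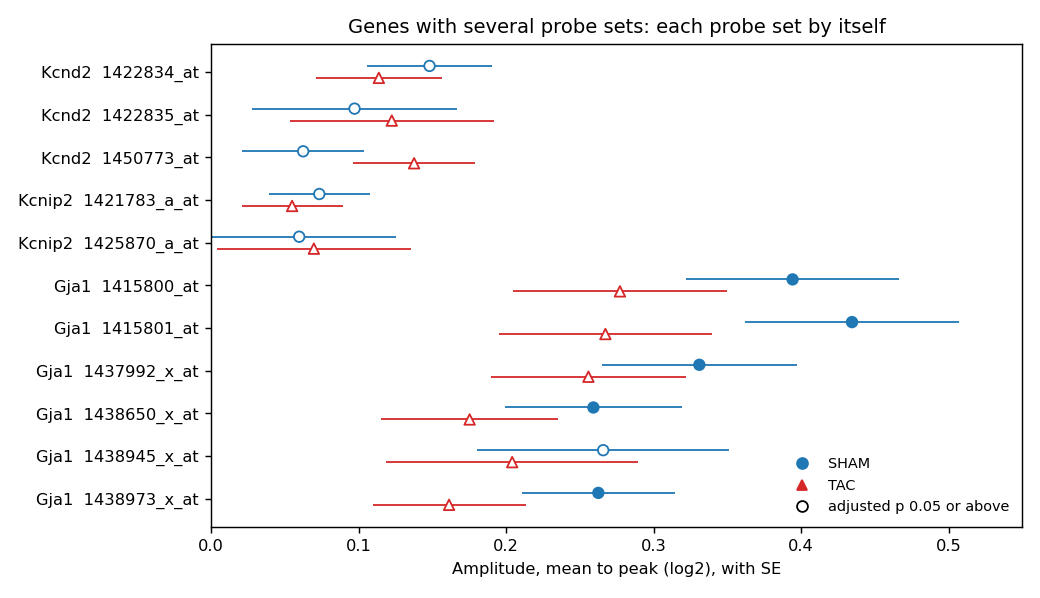
Amplitude of the fitted 24-h curve (log2, with SE) for each probe set of the 3 genes read by several, in SHAM (circles) and TAC (triangles), filled where the adjusted p over all probe sets was under 0.05. Of the 6 Gja1 probe sets 5 are filled in SHAM and 0 in TAC, and 0 of the 5 probe sets of Kcnd2 and Kcnip2 are filled.

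Kcna5, on chromosome 6 (126532551 to 126535555, GRCm38.p6), encodes Kv1.5, which carries a slowly inactivating outward current in mouse ventricle. Its SHAM arrays read 0.30, 0.56 and 0.27 at ZT15 and -0.44, -0.29 and -0.24 at ZT23, with no overlap between the times. They read 0.20, -0.03 and 0.56 at ZT07 and 0.05, 0.19 and 0.03 at ZT11. At ZT03 they were -0.003, -0.26 and -0.22, and at ZT19 0.003, -0.06 and -0.33. The gene was thus high from ZT07 to ZT15 and low from ZT19 to ZT03, with wide differences between mice at ZT07. The amplitude was 0.29 ± 0.07 and the peak at ZT11.6 ± 0.86 h (SE, n = 18), with an adjusted p of 0.0132 in limma that held without any single array (up to 0.0444).

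In TAC no such course was seen for Kcna5. At ZT15 the TAC arrays read 0.02, 0.09 and -0.42 and at ZT23 0.05, 0.18 and -0.22, so the times overlapped. At ZT11 they read 0.49, -0.17 and 0.04. The TAC amplitude was 0.04 ± 0.07 (SE, n = 18, adjusted p = 0.932). The TAC minus SHAM difference in amplitude was -0.26 ± 0.09 (SE). Among the 9 genes Kcna5 had the smallest p both for a difference in rhythm (unadjusted p = 0.0323, adjusted p = 0.789 in limma) and for a difference in time course of any shape (unadjusted p = 0.00877, adjusted p = 0.561), where it ranked 193 of 12393. Neither passed over all genes. Both passed when arrays were weighted by their quality (adjusted p = 0.0424 and 0.0207), a setting that called 409 and 1730 genes. The main fit called 6 and 2, and the estimation of the weights did not converge fully. With these weights the time courses of Kcnj3 (adjusted p = 0.00531), Kcnj12 (0.0201) and Gja1 (0.0321) passed as well.

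Kcnh2, on chromosome 5 (24319589 to 24351684, GRCm38.p6), encodes the ERG channel of the rapid delayed rectifier, the channel whose loss prolongs the QT interval in people. Its SHAM arrays read 0.08, 0.38 and 0.28 at ZT11 and 0.06, 0.14 and 0.18 at ZT15, against -0.08, -0.24 and -0.32 at ZT03. All 6 of the former lay above the 3 of the latter. At ZT07 they read 0.20, -0.05 and 0.12, at ZT19 -0.05, -0.07 and -0.003, and at ZT23 -0.18, 0.003 and -0.14. In TAC the arrays read 0.36, -0.15 and 0.29 at ZT11 and 0.10, -0.01 and 0.25 at ZT07, against -0.24, -0.36 and -0.37 at ZT23. At ZT15 they were -0.17, 0.33 and 0.14, at ZT19 -0.07, 0.21 and -0.01, and at ZT03 0.01, 0.02 and -0.42. The lowest group was ZT03 in SHAM and ZT23 in TAC. On the 3 TAC ZT23 arrays the mean of the 7 atrial markers was -0.34, -0.92 and -0.96 and that of 7 fibroblast markers 0.67, 0.36 and 0.51, the lowest and the highest TAC group means of these lists. With atrial and white adipocyte means together as covariates the TAC call of Kcnh2 ended (adjusted p = 0.119). The part of the atrial or the fibroblast markers by themselves was not tested.

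The fitted Kcnh2 rhythms had nearly the same size and time in both surgeries. The amplitude was 0.20 ± 0.05 with a peak at ZT12.1 ± 0.95 h in SHAM (adjusted p = 0.0302) and 0.22 ± 0.05 with a peak at ZT11.8 ± 0.89 h in TAC (SE, n = 18, adjusted p = 0.0225 in limma). The difference in amplitude was 0.01 ± 0.07 and that in peak time -0.31 ± 1.30 h (SE). These tests shared 1 estimate of the spread, while the SD within groups was 0.11 in SHAM and 0.20 in TAC. With each surgery fitted alone the adjusted p was 0.00169 in SHAM and 0.164 in TAC. Over all arrays, the call in SHAM ended without SHAM ZT23 replicate 1 (adjusted p = 0.0518), ZT03 replicate 2 (0.0637) or 3 (0.0695), ZT11 replicate 2 (0.0885), or ZT11 replicate 3, the array with thymus transcripts (0.0635). The TAC call ended without TAC ZT11 replicate 1 (0.0622) or 3 (0.0557) or TAC ZT23 replicate 2 (0.0661) or 3 (0.0721).

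**Figure D3:**
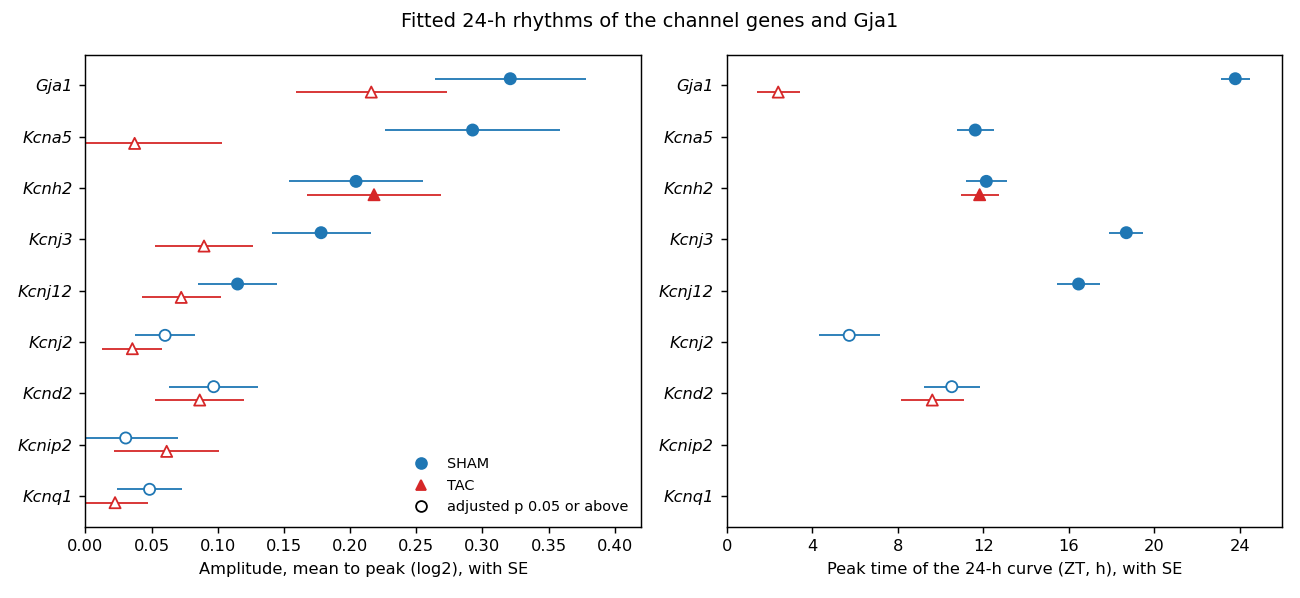
Left, amplitude of the fitted 24-h curve (log2, with SE, 18 arrays each) for the 9 genes in SHAM (circles) and TAC (triangles). Right, its peak time (ZT in h, with SE), shown where the unadjusted p was under 0.05. Filled symbols mark an adjusted p under 0.05, which 5 genes reach in SHAM and Kcnh2 alone reaches in TAC. Kcna5 and Kcnh2 peak near ZT12 in SHAM and Gja1 near ZT24.

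Kcna5 and Kcnh2, high together near ZT12 in SHAM, and Gja1, high near ZT24, are shown with the 250 bases before a transcript start given by RefSeq, as is Kcnj2, the only gene of the set with an E-box there. A promoter was found for 8 of the 9 genes in RefSeq (GRCm38.p6), and Kcnq1 had none in the table. For Kcna5, Gja1, Kcnj2 and Kcnd2 this start is the outermost one of the annotated gene. For the other 4 it lies inside the gene, 22.1 kb downstream of the outermost start for Kcnh2, 24.2 kb for Kcnj3, 43.2 kb for Kcnj12 and 0.359 kb for Kcnip2, so the windows of these 4 are those of an internal start. Letters searched on both strands were the E-box CACGTG to which the clock activators bind, the variant CACGTT, the D-box TTATGTAA, the nuclear receptor half-site AGGTCA and CACCC, the core of sites of Kruppel-like factors. No motif overlapped another in these sequences. Capitals mark the matches, on either strand.
Kcna5 (chr6:126535556-126535805, minus strand): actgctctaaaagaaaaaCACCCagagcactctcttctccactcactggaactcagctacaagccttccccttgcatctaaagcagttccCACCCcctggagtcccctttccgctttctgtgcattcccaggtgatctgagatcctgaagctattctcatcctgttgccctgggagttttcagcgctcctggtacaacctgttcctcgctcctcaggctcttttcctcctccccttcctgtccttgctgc
Kcnh2 (chr5:24329592-24329841, minus strand): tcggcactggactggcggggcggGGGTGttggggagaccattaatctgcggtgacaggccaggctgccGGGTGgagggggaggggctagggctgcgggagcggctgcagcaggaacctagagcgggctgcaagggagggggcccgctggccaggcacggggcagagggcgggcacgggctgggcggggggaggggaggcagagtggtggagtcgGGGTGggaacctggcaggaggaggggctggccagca
Gja1 (chr10:56377050-56377299, plus strand): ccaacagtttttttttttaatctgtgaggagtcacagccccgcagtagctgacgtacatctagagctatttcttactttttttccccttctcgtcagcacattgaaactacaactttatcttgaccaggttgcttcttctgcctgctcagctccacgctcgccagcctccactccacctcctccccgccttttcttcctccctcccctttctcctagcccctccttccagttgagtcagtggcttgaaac
Kcnj2 (chr11:111065914-111066163, plus strand): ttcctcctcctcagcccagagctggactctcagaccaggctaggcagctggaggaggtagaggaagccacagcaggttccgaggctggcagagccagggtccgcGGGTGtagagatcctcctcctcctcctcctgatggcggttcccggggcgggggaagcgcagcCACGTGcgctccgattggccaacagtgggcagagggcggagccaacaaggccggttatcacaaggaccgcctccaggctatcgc
CACCC or its reverse complement occurred 2 times in the window of Kcna5 and 3 times in that of Kcnh2. It occurred 4 times in that of Kcnip2, and 1 time each in those of Kcnj2, Kcnj12 and Kcnd2. It was in 52% of the 32817 promoter windows of this length. The E-box of Kcnj2 lay at positions -84 to -79 relative to this start, and 6.02% of windows held one. None of these letters was found in the window of Gja1 or in that of the internal start of Kcnj3. The matches are a description of the letters only.

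Kcnj3, on chromosome 2 (55411798 to 55598145, GRCm38.p6), encodes GIRK1. Its SHAM arrays read 0.29, 0.20 and 0.10 at ZT19 and 0.06, 0.20 and 0.16 at ZT15. They read -0.11, -0.26 and -0.06 at ZT07 and -0.08, -0.06 and -0.15 at ZT11, so the times ZT15 and ZT19 did not overlap ZT07 and ZT11. At ZT03 they were 0.09, -0.22 and -0.10, and at ZT23 -0.06, 0.09 and 0.18. The amplitude was 0.18 ± 0.04 with a peak at ZT18.7 ± 0.80 h (SE, n = 18, adjusted p = 0.00665 in limma), and the call held without any single array (up to 0.0293). In TAC the group means ran from -0.18 ± 0.16 at ZT23 to 0.12 ± 0.16 at ZT19 (SD, n = 3). The TAC amplitude was 0.09 ± 0.04 with a peak at ZT15.5 ± 1.59 h (adjusted p = 0.295), and the difference of rhythm had an unadjusted p of 0.0492 (adjusted p = 0.789).

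In SHAM, atrial markers peaked near the same time as Kcnj3. Of 7 atrial markers, Nppa, the atrial natriuretic peptide, and Bmp10, an atrial growth factor, had a rhythm in SHAM, and the SHAM peaks of all 7 lay between ZT18.5 and ZT19.7. In SHAM the mean of the 7 was -0.61 ± 0.28 at ZT07 and 0.17 ± 0.03 at ZT19, and over the arrays it ranged from -0.92 to 0.26. In TAC it was 0.26 ± 0.30 at ZT19 and -0.74 ± 0.35 at ZT23 (SD, n = 3), the times of the highest and lowest Kcnj3 means. Over the TAC arrays the atrial mean ranged from -0.96 to 0.56. The fitted TAC peaks of the 7 markers ran from ZT9.6 (Tbx5) to ZT22.6 (Nppa), and that of Kcnj3 was at ZT15.5. Which of these markers were absent could not be read from centred values, and their part in the result was not tested. With the means of the atrial and white adipocyte markers as covariates the SHAM amplitude of Kcnj3 was 0.13 and its adjusted p 0.13. With the same covariates Gja1 (adjusted p = 0.0015), Kcna5 (0.0186) and Kcnh2 (0.0298) kept their SHAM calls, and Kcnj12 did not (0.0764). The SHAM amplitude of Kcnj12 was 0.116 with the covariates and 0.115 without them. Both means enter this fit together, and the atrial mean itself differed between times in SHAM. The fit therefore cannot assign a call to atrial tissue.

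Kcnj12 and Kcnj2 lie on chromosome 11 (61022564 to 61073269 and 111066164 to 111076825, GRCm38.p6) and encode the inward rectifiers Kir2.2 and Kir2.1. Kcnj12 arrays in SHAM read 0.08, 0.28 and 0.18 at ZT15, against -0.05, -0.18 and -0.09 at ZT03 and -0.03, -0.07 and -0.09 at ZT07, with no overlap. At ZT11 they were 0.08, 0.11 and -0.13, at ZT19 -0.06, 0.17 and 0.02, and at ZT23 -0.02, 0.17 and 0.04. The amplitude of Kcnj12 was 0.11 ± 0.03 with a peak at ZT16.5 ± 0.99 h (SE, n = 18, adjusted p = 0.0403 in limma). The call ended when each probe set was tested by itself (adjusted p = 0.0519), with the probe set of largest SD per gene (0.0531) and in a fit of the SHAM arrays alone (0.0563). It also ended without SHAM ZT03 replicate 1 (adjusted p = 0.05003), 2 (0.12) or 3 (0.0749), SHAM ZT07 replicate 1 (0.0547), 2 (0.0719) or 3 (0.0752), SHAM ZT15 replicate 2 (0.131) or 3 (0.0925), or SHAM ZT19 replicate 2 (0.0879). In TAC Kcnj12 ran from -0.12 ± 0.06 at ZT07 to 0.09 ± 0.08 at ZT19 (SD, n = 3), with an amplitude of 0.07 ± 0.03 and an adjusted p of 0.285.

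Kcnj2 had an amplitude of 0.06 ± 0.02 in SHAM (adjusted p = 0.237) and 0.04 ± 0.02 in TAC (SE, n = 18, adjusted p = 0.585). Its SHAM arrays ranged from -0.16, on ZT11 replicate 3, to 0.19, on ZT07 replicate 1. Its TAC arrays ranged from -0.07 to 0.16. The products of Kcnj2 and Kcnj12 form channels of the same kind, and in SHAM Kcnj2 was highest at ZT07 (mean 0.10 ± 0.09) and lowest at ZT15 (-0.07 ± 0.08), the time at which Kcnj12 was highest (0.18 ± 0.10, SD, n = 3). Whether the courses of these genes differ was not tested.

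Neither transient outward gene passed in SHAM or in TAC. Kcnip2, on chromosome 19 (45792346 to 45816422, GRCm38.p6), had the smallest amplitude in SHAM, 0.03 ± 0.04 (SE, n = 18, adjusted p = 0.862 in limma), with arrays between -0.14 and 0.09. In TAC the amplitude was 0.06 ± 0.04 (adjusted p = 0.59) and arrays lay between -0.36, on ZT15 replicate 3, and 0.16, on ZT03 replicate 2. Its 2 probe sets correlated at only 0.14 over the 36 arrays, so the gene mean joins readings that largely differ. Taken by themselves, they had an adjusted p of 0.421 and 0.84 in SHAM.

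Kcnd2, on chromosome 6 (21215346 to 21729805, GRCm38.p6), peaked at ZT10.5 in SHAM and ZT9.62 in TAC by the fit, with amplitudes of 0.10 ± 0.03 and 0.09 ± 0.03 (SE, n = 18). Its adjusted p was 0.182 in SHAM and 0.25 in TAC, and unadjusted p was 0.0238 and 0.0483. Fitted on the SHAM arrays alone, Kcnd2 passed (adjusted p = 0.0396), as it did in the added test of the mean curve of both surgeries (adjusted p = 0.0225). Its SHAM arrays at ZT07 read 0.08, 0.15 and 0.13 and those at ZT03 -0.02, -0.07 and -0.15. The 3 probe sets of Kcnd2 correlated between -0.11 and 0.48, and none passed by itself. Kcnq1, on chromosome 7 (143106877 to 143427050, GRCm38.p6), the pore subunit of the slow delayed rectifier, had amplitudes of 0.05 ± 0.02 and 0.02 ± 0.02 (adjusted p = 0.445 and 0.835).

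Comparison of the 6 group means without assuming a curve called fewer of the genes. In SHAM Gja1 (adjusted p = 0.0205) and Kcna5 (0.0213) passed, against 3.37% of all genes, and Kcnj3 had an adjusted p of 0.0555. In TAC 0 of the 9 passed in limma, against 5.26% of all genes, with Kcnh2 at an adjusted p of 0.061 and 3 genes at an unadjusted p under 0.05, against 20.3%. In SHAM 5 had such a p, against 13.2%. The Gja1 call ended without SHAM ZT23 replicate 1 (0.0642) or SHAM ZT15 replicate 2 (0.0553) or 3 (0.0566), and the Kcna5 call without SHAM ZT23 replicate 1 (0.0652) or SHAM ZT15 replicate 2 (0.0802). Kcnj3 came under 0.05 without SHAM ZT23 replicate 1 (0.0414), SHAM ZT03 replicate 1 (0.02), TAC ZT11 replicate 2 (0.0354), TAC ZT19 replicate 2 (0.0363) or TAC ZT23 replicate 3 (0.0339). Kcnh2 in TAC came under 0.05 without TAC ZT15 replicate 1 (0.0188), TAC ZT11 replicate 2 (0.012) or TAC ZT03 replicate 3 (0.037). Time courses differed between TAC and SHAM for 0 of the 9 genes in limma (0.0161% of all genes), and at an unadjusted p under 0.05 for 1 gene, Kcna5, against 5.57% of all genes.

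Other channel genes, from lists of the currents of the heart, gave no call, where 5.58% of all genes passed in SHAM and 4.35% in TAC. In lists of 10 to 13 genes a count of 0 passing lies near those shares. An unadjusted p under 0.05 was reached by 18.8% of all genes in SHAM and 19.8% in TAC. Of 12 measured voltage-gated potassium channel genes and partners, 0 passed in either surgery in limma, and 1 in each had an unadjusted p under 0.05. In this list Kcne1, the partner of Kcnq1, had a TAC amplitude of 0.15 ± 0.05 (adjusted p = 0.124), and Kcnc4 a SHAM amplitude of 0.06 ± 0.02 (adjusted p = 0.245). Of 13 other genes of inward rectifier, two-pore and calcium-activated potassium channels and their partners, 0 passed and 0 had an unadjusted p under 0.05 in either surgery, with Kcnk2, a stretch-sensitive channel, at an adjusted p of 0.298 in SHAM and Kcnj4 at 0.367. Of 10 sodium, calcium, chloride and pacemaker channel genes, 0 passed and 1 in SHAM, the sodium channel beta subunit gene Scn3b, had an unadjusted p under 0.05 (adjusted p = 0.214). The next smallest p in that list was that of Cacna2d1, a calcium channel subunit (adjusted p = 0.329). The median SHAM amplitude of these 3 lists was 0.05, 0.04 and 0.05.

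Of 17 other connexin and intercalated disc genes, 0 passed in SHAM and 1 in TAC, in limma, a share near the 4.35% of all genes. In each surgery 4 had an unadjusted p under 0.05, where 18.8% of all genes did in SHAM and 19.8% in TAC. The 1 was Tjp1, which encodes ZO-1, a scaffold that binds connexin 43, with an amplitude of 0.16 ± 0.04 and a peak at ZT17.6 (SE, n = 18, adjusted p = 0.0454). Its SHAM amplitude was 0.12 ± 0.04 (adjusted p = 0.19). Of 10 transcription factor genes known to act on channel genes or the ventricle, 3 passed in SHAM, against 5.58% of all genes. This list too was chosen with earlier results of these data known. Klf15, a Kruppel-like factor known to act on Kcnip2, peaked at ZT11.6 (amplitude 0.31 ± 0.07, adjusted p = 0.0132), the hour of the Kcna5 peak. Nkx2-5 peaked at ZT20.8 (0.15 ± 0.03, adjusted p = 0.00473), and Gata4 at ZT0.42 (0.18 ± 0.05, adjusted p = 0.0398). In TAC 1 of the 10 passed, against 4.35% of all genes. It was Gata4, with a peak at ZT1.49 (0.20 ± 0.05, adjusted p = 0.0171), and Klf15 had an amplitude of 0.24 ± 0.07 (adjusted p = 0.0972). All 14 core clock genes listed passed in each surgery.

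The genes most like each member over all 36 arrays were picked by the highest Pearson r among 12122 named genes. They are a description of the arrays, which share time of day and array quality, and r values picked as the highest carry no test. For Kcnh2 they were the clock output gene Hlf (r = 0.83), the clock-driven protease gene Usp2 (0.79) and the cholesterol transport gene Npc1 (0.77), and the r of Hlf was 0.86 within SHAM and 0.83 within TAC. Hlf peaked at ZT13.1 in SHAM and ZT11.8 in TAC, and Usp2 at ZT11.7 and ZT11.6. For Kcna5 they were Timp4, a protease inhibitor gene (0.73), Kank3 (0.72) and the transcription factor gene Cebpb (0.72), and the r of Kank3 was 0.88 within SHAM and 0.37 within TAC. For Gja1 they were Irx4, a transcription factor gene of the ventricle (0.80), Tnfaip2 (0.77) and the homeobox gene Meis1 (0.74, and 0.90 within SHAM against 0.50 within TAC). Stard10 (0.74), Hacd3 (0.74) and the chloride transporter gene Clcn3 (0.73) were closest to Kcnj3, and Dtna (0.69), Flt1 (0.63) and Rreb1 (0.62) to Kcnj12. Asb15, Kif1c and Bicd2 (0.77, 0.76 and 0.75) were closest to Kcnip2, and Rbfox1, Sorcs2 and Mlf1 (0.74, 0.72 and 0.70) to Kcnd2. For Kcnj2 (Treml1, Sgsh and Slc7a1) and Kcnq1 (Tcf7l1, Pinx1 and Snapc2) the highest r was 0.64 and 0.58.

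Apart from time of day, several of the genes varied together from mouse to mouse. With group means subtracted, 7 of 36 pairs passed a permutation test over the 36 arrays (100000 rearrangements of mice within groups, two-sided, adjusted over the 36 pairs), all with r above 0. Kcnq1 was in 4 of them. Its r with Kcnj3 was 0.63 (rho = 0.69, permutation p = 4e-05 for r and 8e-05 for rho, adjusted 0.00144 and 0.00288), and 0.61 without the 2 arrays farthest from the Kcnj3 median. With Kcnj12 it was 0.64 (rho = 0.67, permutation p = 0.00111 and 6.2e-04, adjusted 0.02 and 0.0112), and 0.61 without 2 arrays. With Kcnh2 it was 0.58 (rho = 0.57, permutation p = 0.00626 and 0.00337, adjusted 0.0376 and 0.0328), and 0.57 without 2 arrays. With Kcnd2 it was 0.56 (rho = 0.56, permutation p = 0.00384 and 0.00716, adjusted 0.0346 and 0.043), and 0.53 without 2 arrays. The other pairs were Kcnh2 with Kcnj3 (r = 0.54, rho = 0.53, permutation p = 0.00312 and 0.00441, adjusted 0.0346 and 0.0328, r = 0.45 without 2 arrays), Kcnd2 with Gja1 (r = 0.48, rho = 0.54, permutation p = 0.00557 and 0.00455, adjusted 0.0376 and 0.0328, r = 0.65 without 2 arrays) and Kcnj3 with Kcnj12 (r = 0.45, rho = 0.40, permutation p = 0.00877 and 0.0278, adjusted 0.0451 and 0.138, r = 0.45 without 2 arrays). Gja1 and Kcna5, which had opposite courses over the day in SHAM, had an r of -0.07 between mice of a group. Genes on 1 array share its quality and its mix of tissue, and the part of these in the correlations was not tested. No share of passing pairs was computed for other genes on these arrays. Whether 7 of 36 is more than other genes would show was therefore not tested.

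**Figure D4:**
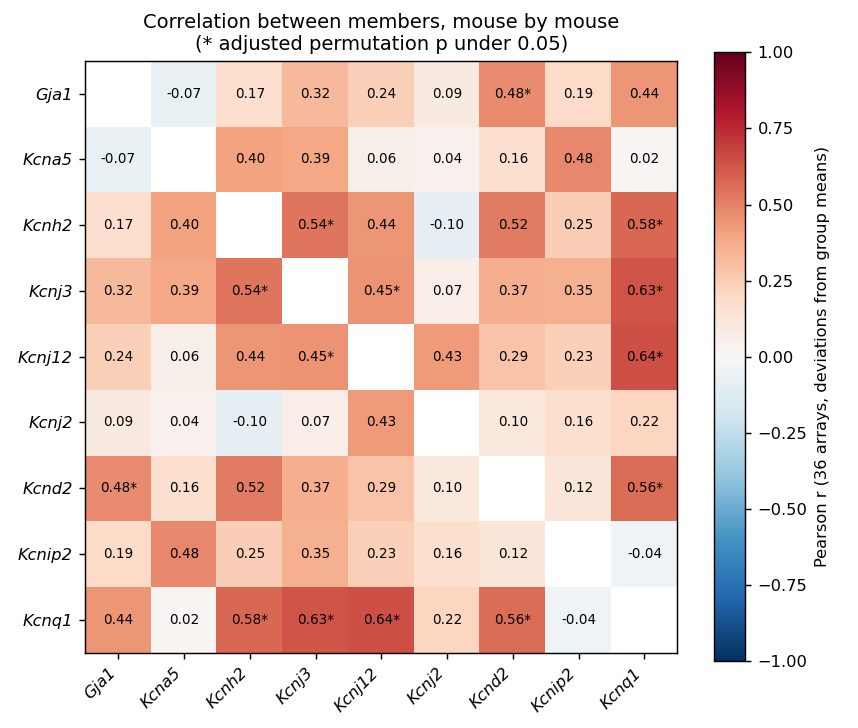
Pearson r between each pair of the 9 genes over 36 arrays after the mean of each group was subtracted, with colour from -1 (blue) to 1 (red) and a star where the permutation p adjusted over the 36 pairs was under 0.05. The 7 starred pairs are positive, and Kcnq1 is in 4 of them.

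Mice of the same group differed more after TAC for 7 of the 9 genes, where 71.9% of all genes did. The SD within groups was 0.07 in SHAM and 0.16 in TAC for Kcnip2, 0.07 and 0.13 for Kcnd2, and 0.11 and 0.20 for Kcnh2. These 3 had the highest log2 ratios of the 9, 1.17, 0.96 and 0.94, and of all genes 94.6%, 89.3% and 88.7% had lower ones. The Kcnip2 and Kcnd2 values are means of probe sets that correlated at only 0.14 and between -0.11 and 0.48, which limits what their SDs describe. For Kcna5 and Gja1 the ratios were 0.33 and 0.31, close to the median of 0.29 over all genes. Kcnj12 (0.10 and 0.08) and Kcnj2 (0.07 and 0.05) varied less in TAC. The median log2 ratio of the 9 genes was 0.33, and after quantile normalization of the arrays it was -0.03, with 4 of 9 higher in TAC against 55.1% of all genes. The larger spread in TAC was therefore not seen for these genes on that scale.

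**Figure D5:**
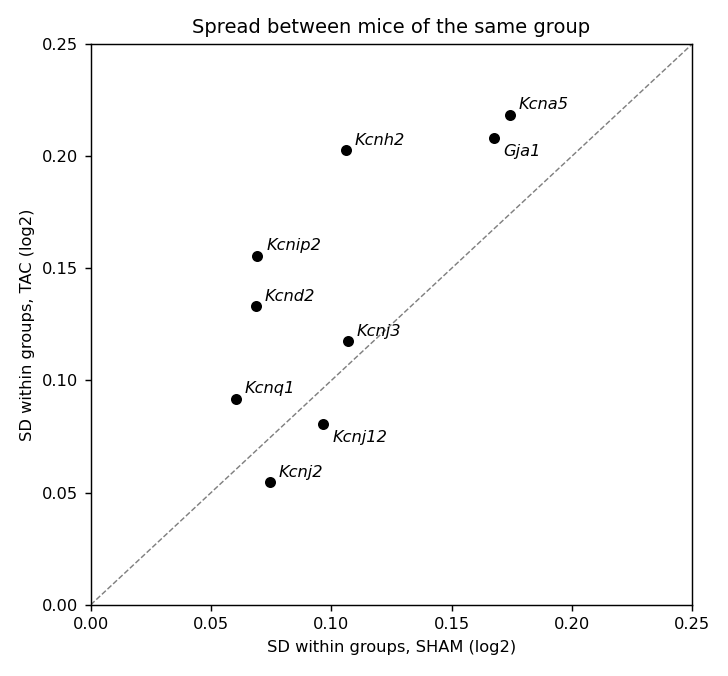
SD within groups of 3 mice (log2, pooled over the 6 times) in TAC against SHAM for the 9 genes, with a dashed line of equality. Kcnip2, Kcnd2 and Kcnh2 lie farthest above the line and Kcnj2 and Kcnj12 lie below it.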

How the data were processed

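Per the labels' protocols, total RNA came from Trizol extracts of frozen tissue, and 6 ug gave the biotinylated cRNA hybridised to each array. The authors deposited values on a log scale, taken as log2, for 22690 probe sets. No label or header states the log base, probe summarisation or normalization. Centring on each surgery's median was found in the deposited values. Group and time come from the sample titles. Probe sets with 1 gene symbol in the platform annotation (20380 after 13 controls were left out) were averaged per gene, giving 12393 genes, and 691 with several symbols were not used. Limma 3.58.1 (R 4.3.3) fitted a mean, cosine and sine of 24 h per surgery over all 36 arrays, without trend or robust fitting, and moderated F-tests asked for a rhythm in each surgery and for a difference. A second model held the 12 group means. The Benjamini-Hochberg adjustment ran across the 12393 genes, with a threshold of 0.05. Standard errors came from the delta method. Tests were also run on simulated data with normal noise and 1 SD per gene for both surgeries. Such data cannot check the tests where the spread differs between SHAM and TAC.

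The 9 genes and the gene lists were chosen with earlier results of these data known. Named were all 9, list genes past the threshold or, with none, the 2 with the smallest p, and the 3 genes of highest r with each member, skipping clone names. The 14 core clock genes are given as a count. Alternatives covered normalization, weights, variance models, probe sets, a filter on SD, covariates, a fold minimum of 1.5, and arrays left out. Replicate numbers were not used to pair the samples in the main fits. Figures were drawn with matplotlib 3.10.9. The number of arrays limits the precision, and no depth applies.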

Additional observations from a re-analysis of the deposited data

How the results depend on the processing

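Leaving out single arrays or all arrays of 1 replicate number gave 0 to 5 genes with a 24-h rhythm in SHAM (5 with all arrays), 0 to 2 in TAC (1 with all), 0 to 3 changing in any shape in SHAM (2 with all) and 0 to 1 in TAC (0 with all). The difference tests stayed at 0 in each of these. With atrial and adipocyte means as covariates in the model the SHAM and TAC rhythm counts were 3 and 0, with a minimum fold of 1.5 from trough to peak they were 2 and 0, and in fits of each surgery alone 5 and 0. Of all 12393 genes these settings called 543 and 438, 117 and 77, and 1166 and 142, against 692 and 539 in the main fit. In TAC 2 genes passed without genes of an SD below the median, which tests fewer genes, and 2 without the 2 arrays of high thymocyte or airway markers. Over all genes these TAC counts were 522 of 6197 and 673 of 12393. Array weights, whose estimation did not converge fully, gave 3 genes in TAC, 1 difference of rhythm, 5 differences of time course, and 6 and 5 changes of any shape in SHAM and TAC. In the same order, that setting called 2298, 409, 1730, 3619 and 4969 of all 12393 genes. Any-shape counts in SHAM were 4 after quantile normalization and 4 from SHAM arrays alone, and the TAC count was 1 without genes of low SD. Over all genes they were 830 and 705 of 12393, and 686 of 6197. The median log2 ratio of SDs turned to -0.0307 after quantile normalization. The cause of these moves was not tested. Median centring of arrays, the variance trend, robust fitting, the largest-SD probe set and each probe set by itself kept all 6 counts within 1.5 times those above, though Kcnj12 lost its SHAM call in the last 2 (adjusted p = 0.0531 and 0.0519), leaving 4 genes. The replicate number is no shared mouse or day in the labels, and same-numbered SHAM and TAC arrays of a time correlated between -0.214 and 0.357 after group means were subtracted. Same-numbered SHAM arrays of different times had a mean r of 0.0915, 0.0981 and 0.109 for the 3 numbers. For TAC arrays it was -0.0487, 0.0168 and -0.00439. Whether same-numbered arrays were processed together was not tested. With the replicate block the 6 counts were 5, 1, 0, 0, 2 and 0, as without it. Of the 36 pairs of genes, 6 passed after quantile normalization against 7. Centring within surgery limits everything here to courses and spreads.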
